A study of Mus musculus with 12 samples.

Results

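MHC class II molecules carry peptides from engulfed proteins to the cell surface, where CD4+ T cells read them. The 6 genes described here are H2-Aa and H2-Ab1 (the alpha and beta chains of the H2-A molecule), H2-Eb1 (the beta chain of H2-E), Cd74 (the invariant chain, which guards the groove until the molecule is sorted), H2-DMa (a chain of the H2-DM peptide exchanger) and Ciita (the transactivator on which class II transcription depends). They were taken as all probe sets annotated to exactly 1 of these symbols, which gave 10 of the 22626 probe sets tested and 6 of the 12393 genes with a single symbol. H2-Ab1 had 3 probe sets, H2-Aa and Ciita had more than 1, and the other genes had 1 each. A gene was represented by its probe set with the highest mean over all arrays. Dendritic cells, macrophages and B cells make class II constitutively, and in the small intestine the absorptive epithelium makes it too, raised by interferon-gamma through Ciita.

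RNA came from scrapings of the ileal mucosa, the distal end of the small bowel, in male C57BL/6 mice aged 6 to 8 weeks, wild type or null for cytochrome P450 reductase (POR), which passes electrons to the P450s of the endoplasmic reticulum. Mice were first adapted for 14 days to a powdered feed free of soya. They then kept that feed (control) or ate it mixed with quercetin, a plant flavonol, at 6.2 g per kg (labelled 7 mg for each mouse) for 24 h. The 4 groups (wild-type control, wild-type quercetin, POR-null control, POR-null quercetin) had 3 Affymetrix 430A arrays each. A pool of 3 mice supplied the RNA for an array, so SDs and p-values describe the spread between pools. The labels do not say which tissues or cells lost the reductase, or by which promoter. In the annotation, 0 tested probe sets carried Por as their only symbol. Probe sets with several symbols were not searched for it, and the genotypes were not checked on these arrays.

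Values are log2 levels, 1 unit being a doubling. Array medians lay between 5.91 and 5.96, and r across probe sets for arrays of the same group was 0.9917 to 0.9956. Wild-type control replicate 2 stood apart, at -25.57 on the first principal component, while the other arrays lay between -10.80 and 10.56. Fabp6, the bile acid binding protein that marks the ileum, lay between 12.05 and 12.76 on all 12 arrays. The arrays carry no detection calls, so no gene could be called absent, and levels of different genes are not compared.

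Class II promoters share an X box, bound by the RFX complex, and downstream of it a Y box, bound by NF-Y, and Ciita acts through the proteins bound there. Of the 6 members, 3 were matched by symbol to RefSeq promoter windows (assembly GRCm38.p6). The stretches just before the start of H2-Aa (chr17:34287824-34287943, minus strand) and H2-Eb1 (chr17:34305747-34305866, plus strand) are shown. Of the 3 matched members, only these had windows holding both the X box core GCAAC and the Y box CTGATTGG, given in capitals. H2-DMa, whose windows did not, had r = 0.87 with H2-Aa and 0.89 with H2-Eb1 over the 12 arrays.
H2-Aa: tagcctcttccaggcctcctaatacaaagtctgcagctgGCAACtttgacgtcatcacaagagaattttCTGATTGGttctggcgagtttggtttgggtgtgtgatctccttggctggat
H2-Eb1: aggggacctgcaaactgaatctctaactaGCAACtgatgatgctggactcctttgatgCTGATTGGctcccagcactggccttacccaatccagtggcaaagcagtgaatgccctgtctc
The Y box letters began 51 bases before the H2-Aa start and 62 before the H2-Eb1 start, and 25 and 24 bases separated them from the X core. Over both strands of the 250 bases before each start, CTGATTGG occurred in 3.83% of 32851 windows. GCAAC lying 10 to 30 bases ahead of it occurred in 26 windows, 0.0791%. The windows of H2-Oa and H2-Eb2, other class II genes of the locus, held this pair as well. Those of H2-DMa, H2-DMb1, H2-DMb2 and H2-Ob did not hold CTGATTGG, and so not the pair. Boxes spelled with other letters were not searched for, so a miss does not show that a box is absent. A match describes the sequence and does not show binding.

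The class II genes differed more between arrays of the same group than nearly all other probe sets did. H2-Aa ranged from 11.42 to 12.55 over the 12 arrays, a 2.19-fold span, and H2-Ab1 from 10.51 to 11.76, or 2.38-fold. The within-group SD, pooled over the 4 groups, was 0.37 for H2-Aa, 0.38 for H2-Ab1, 0.30 for H2-Eb1, 0.30 for H2-DMa and 0.31 for Cd74. Between 97.9% and 99.0% of all tested probe sets had a smaller one. Ciita varied less, with a pooled SD of 0.17 and a span from 5.48 to 6.05, and 85.8% of probe sets had a smaller SD. For each of the 6 genes, the gap between any pair of neighbours in the order of group means was smaller than its own pooled SD. The largest such gap was 0.29, for H2-Eb1. From the highest to the lowest group mean, the gap was 0.19 for Ciita and between 0.44 and 0.53 for the others. For each gene that full gap was larger than its own pooled SD. POR-null quercetin had the lowest mean for all 6 genes, and wild-type quercetin the highest for all but Ciita, whose highest was POR-null control.

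H2-Aa, the alpha chain, was at 12.43, 11.60 and 11.89 in wild-type control replicates 1 to 3 and at 12.07, 12.27 and 12.55 in wild-type quercetin. In POR-null mice it was at 12.17, 12.37 and 11.51 on control and at 11.42, 11.98 and 11.96 on quercetin. The control groups each held a high and a low array and overlapped every other group, while all POR-null quercetin arrays lay below all wild-type quercetin arrays.

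H2-Ab1, its partner beta chain, was at 11.50, 11.03 and 11.42 in wild-type control and at 11.24, 11.51 and 11.76 in wild-type quercetin. It was at 11.46, 11.63 and 10.64 in POR-null control and at 10.51, 11.28 and 11.13 in POR-null quercetin. Here the POR-null quercetin and wild-type quercetin arrays met, since replicate 2 of the former lay above replicate 1 of the latter.

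H2-Eb1 was at 10.79, 10.24 and 10.43 in wild-type control and at 10.57, 10.70 and 10.92 in wild-type quercetin. It was at 10.88, 10.82 and 10.24 in POR-null control and at 9.81, 10.36 and 10.43 in POR-null quercetin, again with the 3 POR-null quercetin arrays below the wild-type quercetin arrays. C57BL/6 mice carry an H2 haplotype that makes no alpha chain for this molecule, H2-Ea. The 3 probe sets of H2-Ea were nearly flat, from 8.33 to 8.63, from 3.82 to 4.06 and from 3.08 to 3.22.

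Cd74, the invariant chain, was at 12.30, 11.70 and 11.88 in wild-type control and at 12.09, 11.97 and 12.35 in wild-type quercetin. It was at 12.21, 12.32 and 11.72 in POR-null control and at 11.27, 12.07 and 11.71 in POR-null quercetin. Replicate 1 of POR-null quercetin was the lowest array, as it was for every other gene described here, but replicate 2 of that group reached into the range of wild-type quercetin.

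H2-DMa, of the peptide exchanger, was at 8.67, 8.32 and 8.35 in wild-type control and at 8.20, 8.84 and 8.79 in wild-type quercetin. It was at 8.68, 8.77 and 8.15 in POR-null control and at 7.87, 8.43 and 8.20 in POR-null quercetin. The quercetin groups overlapped through wild-type quercetin replicate 1, which was low for this gene.

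Ciita was at 5.77, 5.57 and 5.80 in wild-type control and at 5.63, 5.92 and 5.68 in wild-type quercetin. It was at 5.57, 6.05 and 5.77 in POR-null control and at 5.48, 5.70 and 5.63 in POR-null quercetin. Every pair of groups overlapped. Its other probe set correlated with this one at r = 0.37 over the 12 arrays, against 0.80 to 0.87 for the further probe sets of H2-Aa and H2-Ab1 with their representatives, so the Ciita probe sets did not give 1 pattern.

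**Figure D1:**
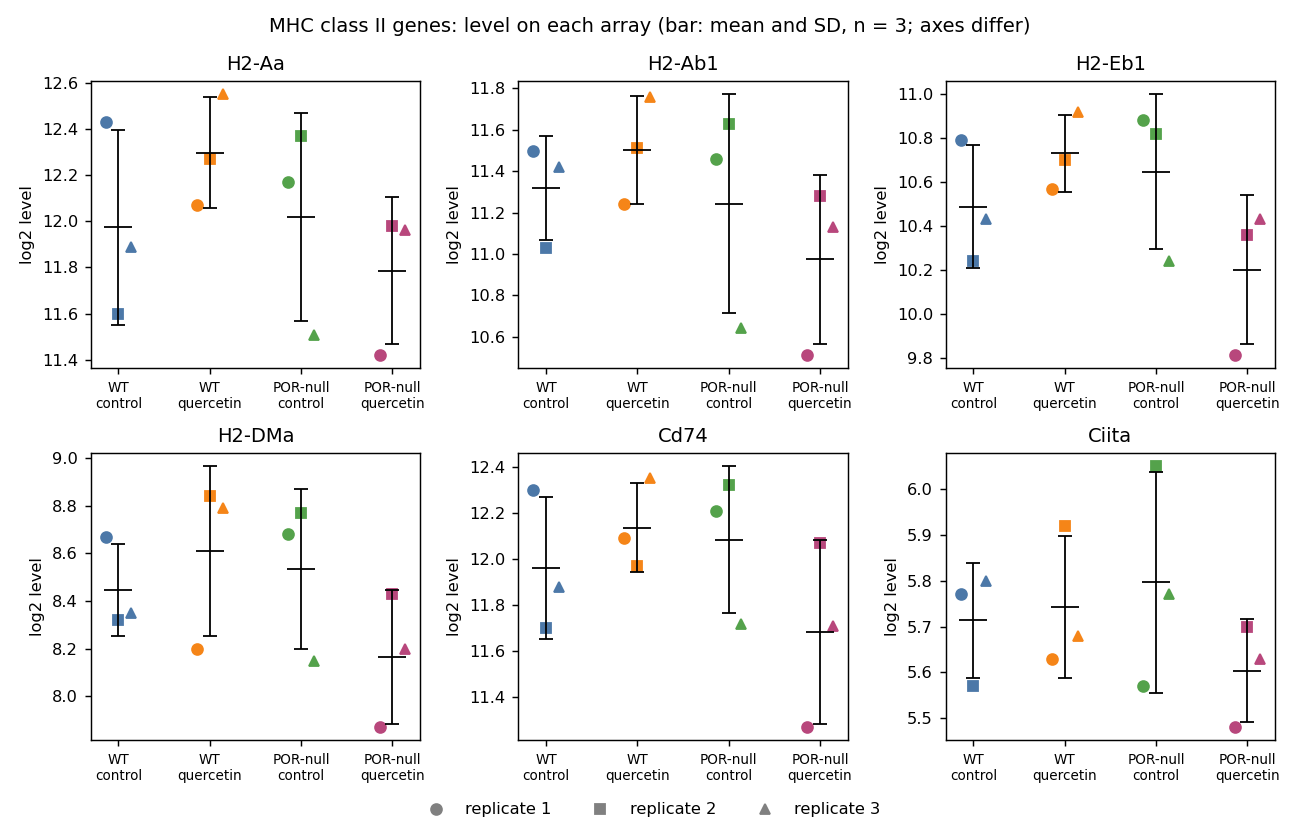
Log2 level of each MHC class II gene (representative probe set) on each array, by group, with replicate number as the symbol and bars for the mean and SD of 3 arrays; the vertical axes differ between genes. Replicate 1 of POR-null quercetin is the lowest of the 12 arrays for all 6 genes, and of the 4 pairs of groups compared, only POR-null quercetin against wild-type quercetin is without overlap, for H2-Aa and H2-Eb1.

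Of the 4 pairs of groups compared, the one with the largest median difference was genotype on the quercetin diet, which set POR-null against wild-type mice during exposure. All 6 genes had a lower mean in POR-null mice, where 44.1% of all tested probe sets did, and the median difference was -0.48 against 0.013 over all of them. H2-Eb1 averaged 10.20 ± 0.34 in POR-null and 10.73 ± 0.18 in wild type (SD, n = 3), a difference of -0.53 ± 0.19 (SE) with a 95% interval from -0.95 to -0.11, or 1.44-fold. H2-Ab1 differed by -0.53 ± 0.24, H2-Aa by -0.51 ± 0.24, Cd74 by -0.45 ± 0.20, H2-DMa by -0.44 ± 0.20 and Ciita by -0.14 ± 0.12. None of the 6 passed limma after Benjamini-Hochberg adjustment over all probe sets (adjusted p from 0.627 to 0.83), where 0% of all probe sets passed. At an unadjusted p under 0.05, 5 of 6 were lower, all but Ciita, against 3.14% of all probe sets. In 2 of 6, H2-Aa and H2-Eb1, all POR-null arrays lay below all wild-type arrays, against 5% of all probe sets. Since the genes vary together, these counts are not independent observations. The further probe sets of H2-Ab1 differed by -0.64 ± 0.21 and -0.58 ± 0.21 and that of H2-Aa by -0.53 ± 0.26, each without overlap, and the other Ciita probe set by 0.03 ± 0.08. Without POR-null quercetin replicate 1 the median difference was -0.30 and 0 of 6 genes had an unadjusted p under 0.05. That count was also 0 without wild-type quercetin replicate 3, while the median was then -0.37. Dropping replicate 3 of wild-type control, 2 of wild-type quercetin, 1 of POR-null control or 3 of POR-null quercetin left a count of 2.

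In bulk RNA, fewer cells of a type and less RNA per cell cannot be told apart. Of 13 measured B cell markers (15 listed), 12 were lower in POR-null on quercetin and 8 had an unadjusted p under 0.05, with 0 past limma's adjusted threshold. The signalling chains of the B cell receptor differed by -0.81 ± 0.13 (Cd79b) and -0.76 ± 0.12 (Cd79a), both at a limma adjusted p of 0.132. The chemokine receptor Cxcr5 differed by -0.35 ± 0.07 (limma adjusted p = 0.293) and the surface protein Ms4a1 by -0.72 ± 0.17 (limma adjusted p = 0.377). The summed linear level of the B cell list was 1124 to 1175 in POR-null quercetin and 1448 to 1648 in wild-type quercetin, with no overlap. Of 18 macrophage and dendritic cell markers, 9 were lower and 9 higher, with sums of 1576 to 1979 and 1460 to 1818. Among them Cd83, found on activated dendritic and B cells, differed by -0.37 ± 0.11 and the complement gene C1qa by -0.19 ± 0.08, at limma adjusted p of 0.5 and 0.673. Xcr1, with the next smallest p, differed in the other direction, by 0.13 ± 0.07 (limma adjusted p = 0.721). Smooth muscle markers, higher in 10 of 11, summed to 1874 to 2691 in POR-null and 1327 to 2229 in wild type. Sums overlapped for T cell markers (948 to 1088 against 942 to 1047), plasma cell markers (5075 to 7177 against 4790 to 5762) and enterocyte markers (54564 to 58588 against 53544 to 57596). Linear sums weigh the probe sets with the highest values most, such as Igha and Xbp1 for plasma cells and Lyz2 for macrophages and dendritic cells. The part of these cell types in the class II values was not tested.

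On the control diet the question was how the genotypes differed without quercetin, and the class II genes were close in their means. The median difference of POR-null from wild type was 0.09, against -0.017 over all probe sets, with 5 of 6 genes higher, where 44% of all probe sets were. H2-Eb1 had the largest, 0.16 ± 0.19 with a 95% interval from -0.26 to 0.58, and H2-Ab1 the lowest, -0.07 ± 0.24. None passed limma (adjusted p from 0.801 to 0.961) where 0% of probe sets did, and 0 of 6 had an unadjusted p under 0.05, against 10.1% of all probe sets in either direction. The 95% interval for H2-Aa ran from -0.47 to 0.55. B cell markers were higher in 9 of 13 (median 0.05) and smooth muscle markers in 10 of 11 (median 0.73). Their part was not tested. Single control arrays moved this median, to -0.04 when POR-null control replicate 2 was left out, to 0.29 when its replicate 3 was, and to 0.00 when wild-type control replicate 2 was.

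In wild-type mice the question was whether quercetin altered these genes within 24 h. All 6 had a higher mean on quercetin, where 42.3% of all probe sets did, with a median difference of 0.18 against -0.023 over all probe sets. H2-Aa went from 11.97 ± 0.42 to 12.30 ± 0.24 (SD, n = 3), a difference of 0.32 ± 0.24 (SE). H2-Eb1 differed by 0.24 ± 0.19, and Ciita by 0.03 ± 0.12. Limma passed none (adjusted p from 0.642 to 0.946), against 0.00442% of all probe sets, and 0 of 6 had an unadjusted p under 0.05, against 10.9%. Among the further probe sets, 1 of H2-Ab1 was higher on all quercetin arrays (0.45 ± 0.21), where 5.33% of all probe sets were. The other Ciita probe set ran the opposite way, with all quercetin arrays below all control arrays (-0.19 ± 0.08, limma adjusted p = 0.423), as 8.08% of all probe sets did. Of the B cell markers, 9 of 13 also had a higher mean on quercetin, 4 of them at an unadjusted p under 0.05. Cd79b differed by 0.81 ± 0.13 (limma adjusted p = 0.0577). The summed level of the B cell list was 1174 to 1426 on control and 1448 to 1648 on quercetin, without overlap. The part of these markers in the class II values was not tested. Without wild-type control replicate 1, 1 of the 6 class II genes had an unadjusted p under 0.05. Without wild-type control replicate 2, the array that stood apart, the median difference was 0.07, and without wild-type quercetin replicate 3 it was also 0.07.

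In POR-null mice, where the same diets were compared, all 6 genes had a lower mean on quercetin, where 44.6% of all probe sets did, with a median difference of -0.32 against 0.013 over all probe sets. H2-Eb1 differed by -0.45 ± 0.19 with a 95% interval from -0.86 to -0.03, Cd74 by -0.40 ± 0.20, H2-DMa by -0.37 ± 0.20, H2-Ab1 by -0.27 ± 0.24, H2-Aa by -0.23 ± 0.24 and Ciita by -0.19 ± 0.12. None passed limma (adjusted p from 0.726 to 0.891) where 0% of probe sets did. At an unadjusted p under 0.05, 1 of 6 was lower, H2-Eb1, against 3.01% of all probe sets. No gene separated the groups, where 5.11% of all probe sets were lower on all quercetin arrays and 7.45% higher. B cell markers were lower on quercetin in 11 of 13, 4 of them at an unadjusted p under 0.05, with Cd79a at -0.66 ± 0.12 (limma adjusted p = 0.415). Another marker, Pax5, was higher at that cutoff, by 0.19 ± 0.08 (limma adjusted p = 0.726). The summed level of the B cell list was 1232 to 1554 on control and 1124 to 1175 on quercetin, without overlap. Of the MHC class I presentation genes, 13 of 14 were lower (median -0.11). The part of these lists in the class II values was not tested. The count of class II genes at an unadjusted p under 0.05 rested on single arrays. It was 4 without POR-null control replicate 3, 3 without POR-null quercetin replicate 2 and 2 without wild-type quercetin replicate 1. It was 0 when replicate 2 of POR-null control or replicate 1 of POR-null quercetin was dropped, with the trend and robust options, or with the replicate block. The median was -0.16 without POR-null control replicate 2 or without POR-null quercetin replicate 1, and -0.56 without POR-null control replicate 3.

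The interaction asked whether the response to quercetin differed between genotypes. It was negative for all 6 genes, where it was for 42.6% of all probe sets, with a median of -0.54 against 0.033 over all probe sets. H2-Eb1 had -0.69 ± 0.27 (SE), Cd74 -0.58 ± 0.29, H2-Aa -0.55 ± 0.33, H2-DMa -0.53 ± 0.28, H2-Ab1 -0.46 ± 0.35 and Ciita -0.22 ± 0.17. None passed limma (adjusted p from 0.446 to 0.641), where 0% of probe sets did, so no difference in response was established for any of them. At an unadjusted p under 0.05, 1 of 6 was lower, H2-Eb1, against 4.24% of all probe sets. That count became 5 when replicate 3 of POR-null control was dropped, 4 when replicate 1 of wild-type control was, 3 when replicate 2 of POR-null quercetin was and 2 when replicate 1 of wild-type quercetin was. Dropping replicate 2 of wild-type control, 3 of wild-type quercetin, 1 or 2 of POR-null control, or 1 of POR-null quercetin left a count of 0. Among B cell markers the interaction was negative in 11 of 13, 6 of them at an unadjusted p under 0.05, with Cd79b at -1.30 ± 0.18 (limma adjusted p = 0.0917) and Cd79a at -1.01 ± 0.17. Another marker, Pax5, was positive at that cutoff, at 0.26 ± 0.11 (limma adjusted p = 0.466). The interaction was negative in 13 of 14 class I presentation genes. The part of these lists in the class II values was not tested. The 5 comparisons share groups, so their values are not independent of each other. The median was -0.37 without POR-null quercetin replicate 1, -0.39 without POR-null control replicate 2 and -0.41 without wild-type control replicate 2.

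**Figure D2:**
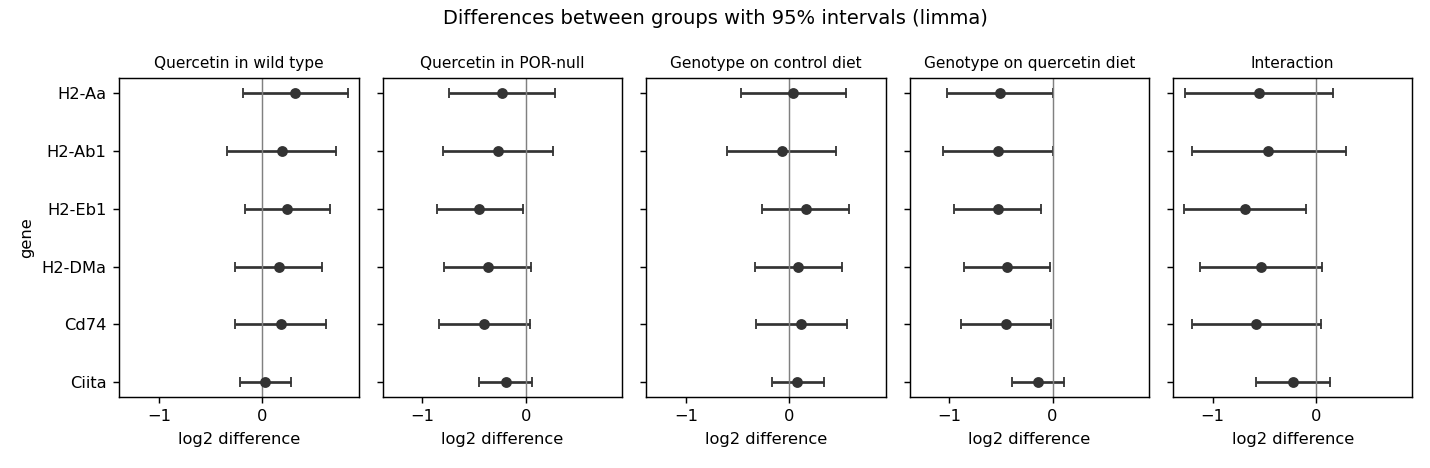
Log2 difference and 95% interval (limma) of each MHC class II gene in the 5 comparisons, as quercetin minus control, as POR-null minus wild type, or as the POR-null response minus the wild-type response. The points for genotype on the quercetin diet lie between -0.53 and -0.14, and those on the control diet between -0.07 and 0.16.

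The structural and accessory genes followed each other closely from array to array. Over the 12 arrays, the 10 pairs among H2-Aa, H2-Ab1, H2-Eb1, H2-DMa and Cd74 had Pearson's r between 0.84 and 0.94 and Spearman's rho between 0.73 and 0.94. All 10 passed a two-sided permutation test with 100000 resamples after Benjamini-Hochberg adjustment over 15 pairs (adjusted p at most 0.001 for r and 0.014 for rho, unadjusted p at most 0.00067 and 0.0093). The r stayed between 0.79 and 0.91 without the 2 arrays farthest from the median of the gene on the x axis, and between 0.77 and 0.96 after each group's mean was subtracted. Thus these genes varied together between pools of the same diet and genotype. Ciita correlated with them less, with r between 0.48 and 0.60 and rho between 0.32 and 0.57, and 0 of its 5 pairs passed the same permutation test (adjusted p from 0.051 to 0.12 for r). Within groups its r was 0.31 to 0.50.

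The array mean of the 6 genes, each centred on its own mean over all arrays, was lowest in POR-null quercetin replicate 1 at -0.59. POR-null control replicate 3 followed at -0.31 and wild-type control replicate 2 at -0.24. It was highest in wild-type quercetin replicate 3 at 0.36, POR-null control replicate 2 at 0.34 and wild-type control replicate 1 at 0.26. High and low arrays thus occurred in both control groups. POR-null quercetin replicate 1 was among the lowest 2 arrays in all 6 genes, and POR-null control replicate 2 among the highest 3 in all 6.

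**Figure D3:**
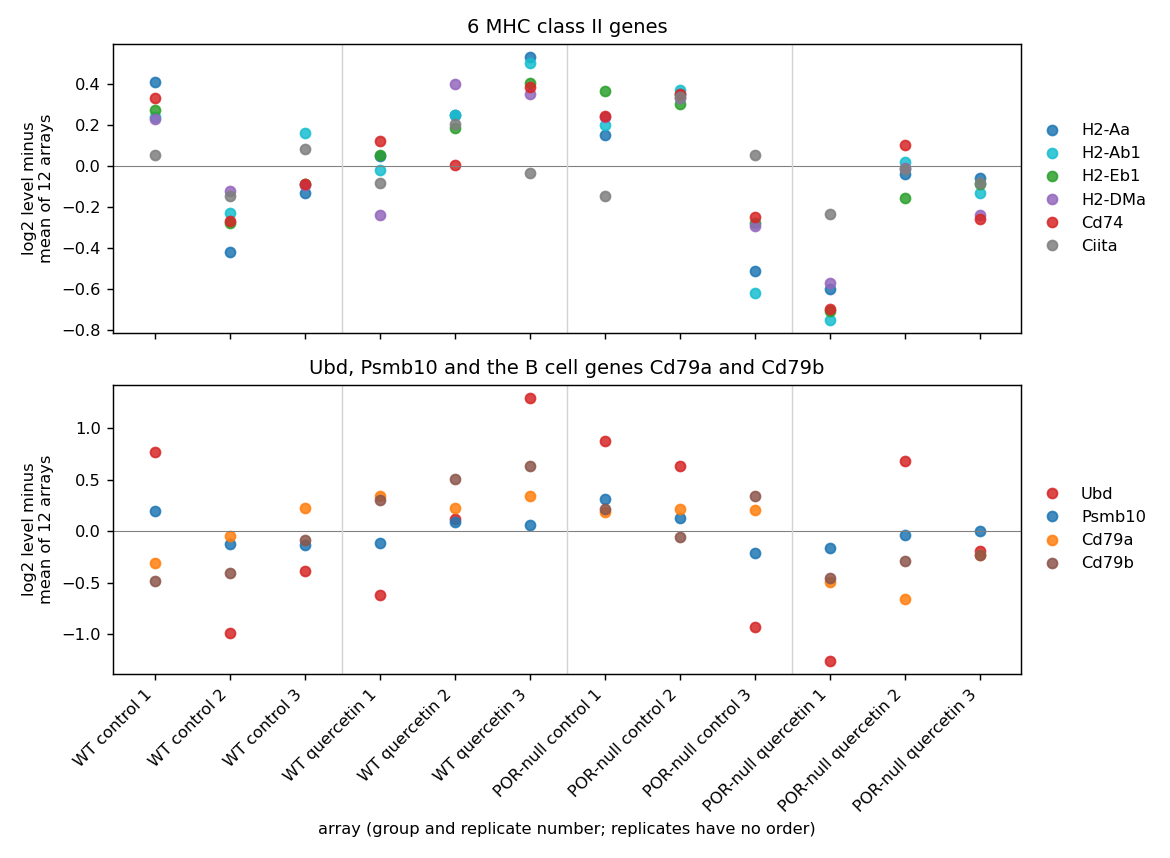
Log2 level of each gene on each of the 12 arrays minus its mean over all arrays, for the 6 MHC class II genes (top) and for Ubd, Psmb10, Cd79a and Cd79b (bottom); replicate numbers have no order. The mean of the class II genes is lowest in POR-null quercetin replicate 1, at -0.59, and is 0.34 in POR-null control replicate 2, where the 6 points lie close together.

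Of 12119 other named genes, Ubd had the pattern most like that array mean, with r = 0.880 over 12 arrays and 0.94 within groups. Ubd encodes FAT10, a ubiquitin-like protein induced by interferon-gamma and tumour necrosis factor. It was at 8.66, 6.91 and 7.51 in wild-type control, 7.28, 8.01 and 9.19 in wild-type quercetin, 8.77, 8.53 and 6.97 in POR-null control, and 6.64, 8.58 and 7.70 in POR-null quercetin. Its lowest and highest arrays were those of H2-Aa, and all groups overlapped. The genes ranked next were the uridine phosphorylase Upp1 (r = 0.849), Pipox (0.837), the spindle protein gene Nusap1 (0.834), Bphl (0.812), Tlcd4 (0.805), Epb41l2 (0.803), Fgf8 (0.800), Park7 (0.795) and Adck1 (0.789). They were picked as the highest values and the median r over all these genes was -0.04. Some varied little, Fgf8 only from 3.57 to 3.77 and Pipox from 7.39 to 7.61, while Ubd spanned 6.64 to 9.19.

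Other genes of the class II pathway were described from lists of symbols. H2-DMb1 and H2-DMb2, the partner chains of H2-DMa, share probe sets. A probe set annotated to both had r = 0.96 with the class II array mean, ranged from 8.48 to 9.67, and differed by -0.48 ± 0.26 between genotypes on quercetin (limma adjusted p = 0.73). It was singled out after its values were seen. The probe set of H2-DMb2 alone had r = 0.12 and a range from 6.00 to 6.27. H2-Oa, a chain of the H2-O molecule that restrains H2-DM, had r = -0.11 and differed by -0.13 ± 0.09 there. Of the 3 measured genes in this group, 0 passed limma in any of the 5 comparisons.

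Among 8 measured genes of antigen processing, 0 passed limma in any comparison. The lysosomal protease Lgmn, which can start the breakdown of antigens, averaged 7.57 ± 0.14 in wild-type control and 8.34 ± 0.26 in POR-null control (SD, n = 3), a difference of 0.77 ± 0.13 (SE, limma adjusted p = 0.209), with no overlap of the groups, where 5.15% of all probe sets were higher on all POR-null arrays. It was singled out for this comparison after its values were seen. On quercetin it differed by 0.41 ± 0.13, opposite in sign to the class II genes, and its r with them was -0.31. The thiol reductase Ifi30 was at -0.13 ± 0.06 on quercetin, and the protease Ctss, which trims the invariant chain, had r = -0.02. Of 15 promoter-binding factors and inducers of class II, among them Rfx5, Nfya, Irf1 and the interferon-gamma receptor gene Ifngr1, 0 passed in any comparison, and r lay between -0.41 and 0.46. Of 6 costimulation genes, 0 passed, and r lay between -0.41 and 0.33. All 6 were higher in POR-null on quercetin (median 0.05) and positive in the interaction (median 0.10), opposite in sign to the class II genes.

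MHC class I presentation genes, which load peptides from inside the cell and share interferon control with class II, had the sign of class II in some comparisons. Of 14 measured, 0 passed limma in any comparison. For quercetin in POR-null mice and for the interaction 13 of 14 were negative, each with a median of -0.11, while between genotypes on quercetin 7 were lower and 7 higher, with a median of -0.02. Their r with the class II array mean had a median of 0.50 and ran from 0.01 (H2-D1, a classical class I heavy chain) to 0.76 (Psmb10, an immunoproteasome subunit). The immunoproteasome subunit Psmb9 and the proteasome activator Psme1 each had 0.69, and the peptide transporter Tap1 and the peptide trimmer Erap1 each had 0.62. These genes were named for their r after it was seen. These are descriptions over 12 arrays, and no test was made of them.

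The r of B cell markers with the class II array mean had a median of 0.22 over the 12 arrays and ran from -0.41 to 0.45. In wild-type quercetin replicates 1 to 3 the B cell score, the mean of the markers each centred on its mean, was 0.09, 0.17 and 0.25, in the same order as the class II mean. POR-null control replicate 3 had a B cell score of 0.19, while its class II mean was -0.31. Wild-type control replicate 1 had a B cell score of -0.15 and a class II mean of 0.26. Over macrophage and dendritic cell markers the median r was -0.18, over T cell markers 0.18, over plasma cell markers -0.22, over enterocyte markers -0.01 and over smooth muscle markers -0.36. Smooth muscle scores differed widely between pools, and the class II mean was 0.36 in wild-type quercetin replicate 3 with a smooth muscle score of -0.71, and 0.18 in POR-null control replicate 1 with a score of 0.96.

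**Figure D4:**
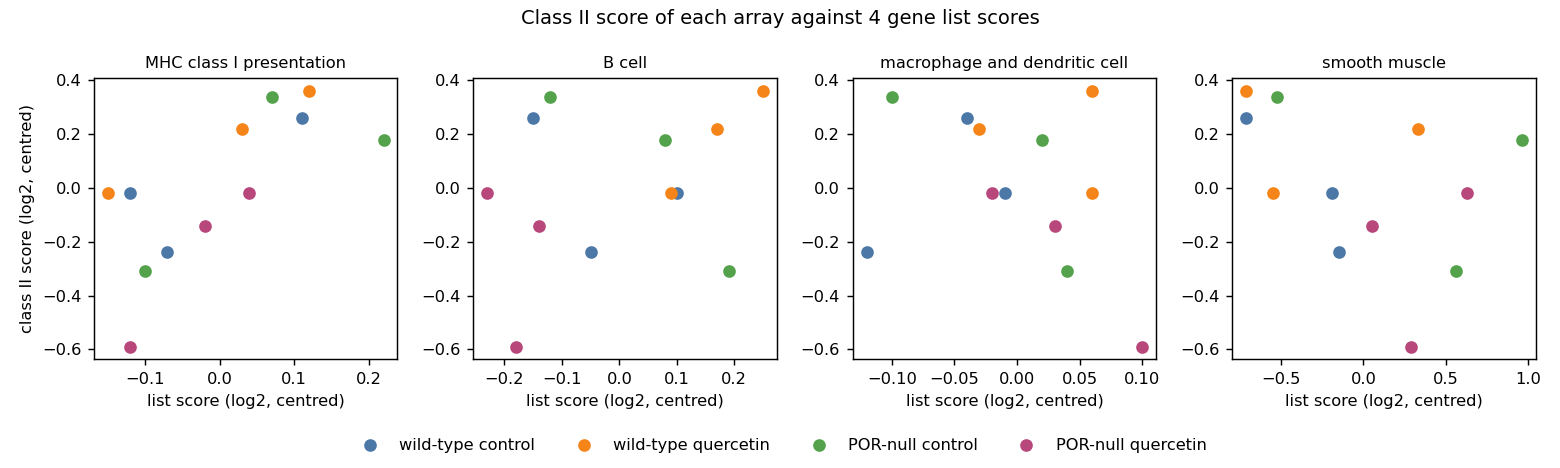
Class II array mean (mean of the 6 genes, each centred over 12 arrays, log2) on the vertical axis against the score of 4 gene lists made the same way on the horizontal axis, 1 point per array coloured by group. POR-null control replicate 1 has the highest class I presentation score, 0.22, with a class II mean of 0.18, and POR-null control replicate 3 lies low with a B cell score of 0.19.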

How the data were processed

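The authors deposited log2 expression levels, 1 per probe set and array. MAS5 and RMA are named, with no role or version, per the submitters' processing notes. They lay between 2.66 and 14.04 and were used without further normalization. The number of arrays limits the precision. The 64 control probe sets among the 22690 were set aside. Platform annotation gave 20380 probe sets 1 symbol, 691 several and 1555 none, and gene IDs linked 20351 of the single-symbol ones to RefSeq genes (GRCm38.p6). Group means over the 12 arrays were estimated by limma 3.58.1 (R 4.3.3, lmFit then eBayes, with 8 residual and 5.59 prior degrees of freedom), with Benjamini-Hochberg adjustment over all tested probe sets and a threshold of 0.05. The median SE was 0.0886 for a pair of groups and 0.125 for the interaction. The fit was tested on simulated data. The members, lists and tests were chosen with earlier results of these data known. All probe sets of the members are described, with the 10 genes most like their array mean (Pearson's r, leaving out names of predicted genes) and, of each list, at most 4 genes with the smallest p in the comparison described. Genes named for their r with the array mean, or said to be singled out, were chosen after their values were seen. Permutation tests used numpy 2.4.6. Alternatives were quantile normalization, median centring, leaving out probe sets below the lower quartile of mean level, trend and robust options of eBayes, weighting arrays, a block for the replicate number, fitting only the groups compared (not for the interaction), a threshold of 0.1, the mean of a gene's probe sets, and leaving out each array. The count of members at an unadjusted p under 0.05 was carried through these after seeing the data.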

Additional observations from a re-analysis of the deposited data

How the results depend on the processing

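In every alternative, 0 of the 6 class II genes passed limma in each of the 5 comparisons, and their median difference stayed within 1 pooled SD (0.33) of the value given. That margin is loose, being larger than the median for quercetin in wild type (0.18) and for genotype on control (0.09). The number of probe sets passing for quercetin in wild type, 1, was 7 without dim probe sets (below the lower quartile) or with trend and robust, 5 with the replicate block, 2 with only the arrays compared, 13 at a threshold of 0.1 and 0 with the mean of a gene's probe sets. The other counts were 0 and became 1 for genotype on control with trend and robust. For genotype on quercetin the count was 5 with trend and robust and 2 with the replicate block or only the arrays compared. For the interaction it was 2 with trend and robust or at 0.1, and 3 with the replicate block. Leaving out single arrays gave 1 to 59 for quercetin in wild type and 0 to 15 for genotype on control, both highest without wild-type control replicate 1. It gave 0 to 1 for genotype on quercetin and 0 to 9 for the interaction. Without 1 array the median of the 6 genes ranged from 0.07 to 0.32, -0.56 to -0.16, -0.04 to 0.29, -0.62 to -0.30 and -0.76 to -0.37, in the order quercetin in wild type, quercetin in POR-null, genotype on control, genotype on quercetin and interaction.

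Signs turned only for small differences. With the mean of a gene's probe sets, Ciita was at -0.08 for quercetin in wild type and -0.01 for genotype on control, and H2-Ab1 at 0.02 for the latter. Without single arrays, Ciita ranged from -0.06 to 0.09 for quercetin in wild type. For genotype on control the ranges were -0.14 to 0.30 for H2-Aa, -0.27 to 0.23 for H2-Ab1, -0.03 to 0.28 for H2-DMa, -0.01 to 0.30 for Cd74 and -0.04 to 0.20 for Ciita. The 5 class II genes at an unadjusted p under 0.05 for genotype on quercetin numbered 3 with quantile normalization or mean probe sets, 2 with the replicate block and 1 with trend and robust. Same-numbered arrays correlated in their deviations from group means at r from -0.18 to 0.16, above 0.1 in 2 of 18 pairs. With 3 arrays per group, these values cannot settle whether the numbers pair the arrays. The cause of these changes was not tested.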
